A study of Mus musculus with 12 samples.

Results

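Calcium reaches the cytosol of a B cell through channels in the plasma membrane and through channels of the endoplasmic reticulum (ER), and the genes described here encode both kinds. They are Cacna1i, a voltage-gated calcium channel gene, the store-operated entry genes Stim1, Stim2 and Orai1, the inositol trisphosphate (IP3) receptor genes Itpr1, Itpr2 and Itpr3, and the ryanodine receptor genes Ryr1, Ryr2 and Ryr3. These 10 genes, of 46078 in the deposited count table, were picked by name by gene family and matched by GENCODE mouse symbol. They were picked with their levels in the 4 groups of libraries already known, so the difference between B cell subsets is given for them as a description, with no test. The levels of both genotypes were in view as well, so the genotype tests below are not independent of this choice. All 10 were found and all 10 had enough reads to be tested in every comparison between genotypes.

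The mice were C57BL/6, 8 to 12 weeks old, and RNA of their splenic B cells was sequenced in a follicular (FO) and a marginal zone (MZ) fraction. FO B cells recirculate through the lymphoid follicles, and MZ B cells lie at the edge of the splenic white pulp and respond quickly to antigens in blood. The controls, called WT in the genotype label, carried the VAVcre transgene, and the conditional knockout (CKO) mice, called Zbtb24-/- there, carried VAVcre with a conditional allele of the zinc finger gene Zbtb24. The Vav promoter drives Cre in blood-forming cells, so all other blood lineages of a CKO mouse are targeted together with its B cells, and controls and CKO mice share the transgene. Both fractions of both genotypes had 3 libraries each, named FO Control, MZ Control, FO CKO and MZ CKO, and the labels number the mice 1505, 1507 and 2003 (control replicates 1 to 3) and 1512, 1514 and 2002 (CKO replicates 1 to 3).

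When antigen binds the B cell receptor, phospholipase C gamma makes IP3, and IP3 opens its receptors in the ER membrane, which lets stored calcium into the cytosol. STIM proteins sense that the store has emptied and open ORAI channels in the plasma membrane, and the sustained entry that follows activates calcineurin and the NFAT transcription factors. Voltage-gated channels and ryanodine receptors are best known from neurons, heart and skeletal muscle.

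The members that differed most between the subsets were Cacna1i and Ryr2, so the RefSeq sequence just before their annotated starts is printed (GRCm38.p6, 250 bases each, 5′ to 3′ on the gene's strand, with CG dinucleotides, the sites of DNA methylation, in capitals). The Cacna1i stretch is chr15:80286988-80287237 on the plus strand and the Ryr2 stretch is chr13:12106946-12107195 on the minus strand.
Cacna1i: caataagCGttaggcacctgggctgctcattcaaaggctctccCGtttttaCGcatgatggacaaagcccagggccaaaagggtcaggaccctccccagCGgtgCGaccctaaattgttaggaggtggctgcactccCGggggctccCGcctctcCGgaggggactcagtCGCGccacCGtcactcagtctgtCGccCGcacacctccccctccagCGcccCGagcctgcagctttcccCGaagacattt
Ryr2: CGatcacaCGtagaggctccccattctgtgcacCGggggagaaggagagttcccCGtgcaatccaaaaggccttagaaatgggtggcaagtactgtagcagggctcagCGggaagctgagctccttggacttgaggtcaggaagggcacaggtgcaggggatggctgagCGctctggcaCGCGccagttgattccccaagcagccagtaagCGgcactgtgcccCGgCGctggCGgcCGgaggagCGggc
RefSeq windows that run from 250 bases before to 50 bases after the start were available for 8 of the 10 genes. CG dinucleotides numbered 23 in the Cacna1i window and 18 in the Ryr2 window, against a median of 7 (quartiles 3 and 20) over 32851 such windows. Stim1, Stim2 and Orai1 held 38, 39 and 36, and Itpr3 and Itpr2 held 30 and 26, whereas Ryr1 held 9. The GC box GGGCGG, searched on both strands, was in 35.7% of all windows and in the windows of all 8 genes except Cacna1i. The letters CAGGACCT, reported as a ZBTB24 site, were in 1.99% of all windows, the NFAT core TGGAAA was in 21.4% and the TATA box TATAAA was in 13.6%. None of these 3 strings was in the windows of the 8 genes.

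The libraries held 36340116 to 44629250 reads assigned to genes, and levels are CPM, the read counts scaled to library size with TMM, unless a sentence says RPKM, which divides the CPM by the kilobases of exon. The B cell markers Cd79a and Ms4a1 (CD20) were at 919.4 to 1196 and 973.4 to 1959 CPM over the 12 libraries. The 6 MZ B cell markers summed to 5070 to 6620 CPM in MZ and 1140 to 1660 CPM in FO libraries. The 5 FO markers did not part the subsets as a sum, since Cr2 is high in MZ B cells, but Fcer2a (CD23) was at 513.2 to 591.3 CPM in FO and 65.75 to 94.01 CPM in MZ libraries. Zbtb24 itself was still counted, at 60.8 to 62.5 CPM in FO Control, 46.87 to 50.01 in FO CKO, 49.09 to 54.41 in MZ Control and 41.76 to 46.38 in MZ CKO libraries, over the whole gene rather than the deleted part. The second principal component of the 12 libraries, 17.7% of their variance, parted mice rather than genotypes. Mice 2003 and 2002 scored 24.8 to 34.6 in both subsets, and mice 1507 and 1514 scored -18.5 to -43. Transcripts of other cells were present in both subsets. As sums of listed markers, T cell transcripts were at 180 to 280 CPM in FO and 114 to 200 in MZ libraries, macrophage and monocyte transcripts at 198 to 497 and 161 to 329, and neutrophil transcripts at 72.5 to 385 and 44.8 to 234. No marker of these lists was at 0 in all libraries of a group. Their part in the differences below was not tested. In bulk RNA, fewer cells with a transcript and less transcript per cell cannot be told apart.

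**Figure D1:**
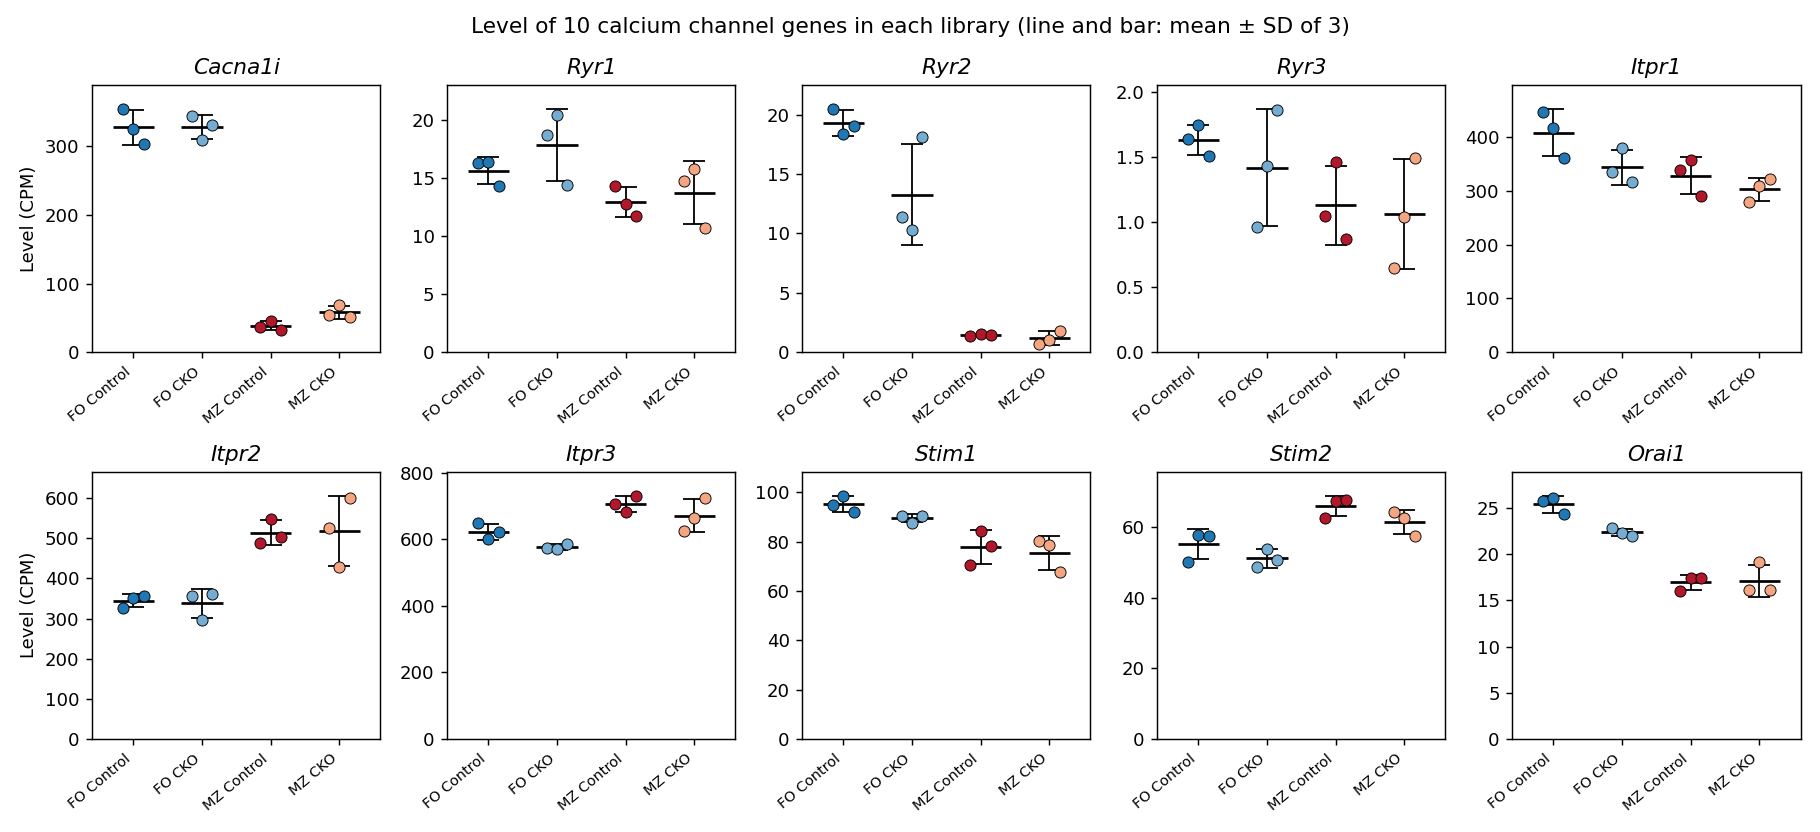
Level of each gene in CPM (vertical axes, from 0) in the 12 libraries, by group; each point is 1 library, and the line and bar are the mean and SD of 3. Cacna1i and Ryr2 are high in FO and low in MZ libraries of both genotypes, whereas the means of the other 8 genes differ by at most 1.54-fold between the subsets.

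Cacna1i (ENSMUSG00000022416, chromosome 15, 80287238 to 80398279, plus strand) encodes the pore of a T-type channel, which opens on small depolarisations. It was at 354.1, 325.8 and 302.8 CPM in FO Control libraries and at 37.36, 45.29 and 32.17 CPM in MZ Control libraries. In CKO mice it was at 344, 309.1 and 331.2 CPM in FO and at 54.35, 68.97 and 51.38 CPM in MZ libraries. Every FO library thus lay far above every MZ library. The MZ level was 8.55-fold lower in control mice (log2 -3.10, SE 0.127) and 5.6-fold lower in CKO mice (log2 -2.49, SE 0.114; n = 3 per group). Among 17830 genes ordered by this difference in control mice it was number 8 from the lowest, and in CKO mice it was number 20 of 17712. Within a mouse the FO level was 9.48, 7.19 and 9.41 times the MZ level in controls 1505, 1507 and 2003 and 6.33, 4.48 and 6.45 times in CKO mice 1512, 1514 and 2002. Mice 1507 and 1514 gave the smallest ratio of their genotype, and on the leading principal component, which parted the subsets (40.8% of the variance), their MZ libraries were nearest to the FO side, at -28.8 and -25 against -41.5 to -50.3 for the other MZ libraries.

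The genes whose pattern over the 12 libraries was closest to that of Cacna1i were found by the root mean square difference of log2 CPM after each gene was centred on its mean. Of 11542 genes ranked, Fcer2a, the low-affinity IgE receptor CD23 that marks FO B cells, was nearest at 0.17. Next came Kcnj1, an inward rectifier potassium channel gene (0.215), Dusp4, a MAP kinase phosphatase gene (0.268), Kctd14 (0.299) and Slc4a11, a solute carrier gene (0.308). Fcer2a was at 558 CPM in the FO and 69.6 CPM in the MZ libraries of controls. Ryr2 was at 0.683 from Cacna1i, with 58 genes closer, and the other members were at 1.19 (Orai1) to 1.73 (Itpr2).

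Store-operated entry genes moved less. Orai1 (chromosome 5, 123015074 to 123030456, plus strand), the pore of the store-operated channel, was at 25.79, 26.06 and 24.38 CPM in the FO and 15.98, 17.43 and 17.42 CPM in the MZ libraries of controls. It was at 22.8, 22.28 and 22.03 CPM in FO CKO and 16.08, 19.14 and 16.15 CPM in MZ CKO libraries. The MZ level was 1.5-fold lower in control mice (log2 -0.58, SE 0.0842) and 1.3-fold lower in CKO mice (log2 -0.38, SE 0.101), without overlap of the libraries in either.

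The ER calcium sensors differed in opposite directions. Stim1 (chromosome 7, 102267806 to 102437319, plus strand), the main trigger of ORAI channels, was at 94.79, 98.47 and 91.98 CPM in the FO and 70.63, 84.41 and 78.26 CPM in the MZ libraries of controls. Its CKO levels were 90.38, 87.52 and 90.55 CPM in FO and 80.38, 78.44 and 67.64 CPM in MZ libraries. Stim1 was therefore lower in all MZ libraries than in all FO libraries (log2 -0.29, SE 0.0754, in controls and -0.24, SE 0.0783, in CKO mice). Stim2 (chromosome 5, 53998499 to 54121057, plus strand), which responds to smaller losses of stored calcium, was at 50.12, 57.76 and 57.29 CPM in the FO and 62.52, 67.43 and 67.6 CPM in the MZ libraries of controls. It was at 48.62, 53.82 and 50.75 CPM in FO CKO and 64.13, 62.48 and 57.53 CPM in MZ CKO libraries. Stim2 was higher in MZ B cells (log2 0.26, SE 0.0743, in controls and 0.27, SE 0.0763, in CKO mice), and within each genotype the libraries of the subsets did not overlap. Per kilobase, Stim1 made up 46.1 ± 2.02% of the STIM RPKM in FO Control, 46.5 ± 1.69% in FO CKO, 36.9 ± 1.27% in MZ Control and 37.8 ± 0.866% in MZ CKO libraries (SD, n = 3). The STIM sum itself differed by less than its SD, at 19.9 ± 0.933 RPKM in FO Control and 20.3 ± 1.19 RPKM in MZ Control libraries.

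IP3 receptor genes were the most abundant release channel genes, in CPM and per kilobase. Itpr3 (chromosome 17, 27057304 to 27122223, plus strand) was at 648.9, 600 and 621.6 CPM in the FO and 706.3, 682.7 and 730.9 CPM in the MZ libraries of controls. In CKO mice it was at 573.7, 571.1 and 586.9 CPM in FO and 626.7, 665.9 and 723.9 CPM in MZ libraries. All MZ libraries of a genotype lay above all its FO libraries, by a small margin (log2 0.18, SE 0.0654, in controls and 0.23, SE 0.0777, in CKO mice).

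Itpr2 (chromosome 6, 146108299 to 146502223, minus strand), the receptor most sensitive to IP3, was at 325.3, 351.9 and 357.4 CPM in the FO and 489.4, 549.3 and 502.9 CPM in the MZ libraries of controls. Its CKO levels were 356, 297 and 362 CPM in FO and 525.8, 428.1 and 601.6 CPM in MZ libraries. It was the member with the largest excess in MZ B cells, 1.49-fold in controls (log2 0.58, SE 0.071) and 1.54-fold in CKO mice (log2 0.62, SE 0.131). Itpr1 (chromosome 6, 108213096 to 108551109, plus strand), the receptor type that dominates in cerebellar neurons, went the other way. It was at 445.9, 417.2 and 359.9 CPM in the FO and 338.2, 356.8 and 289.6 CPM in the MZ libraries of controls (log2 -0.31, SE 0.0975). In CKO mice, at 334.5, 379.5 and 316.6 CPM in FO and 279, 308.7 and 320.9 CPM in MZ libraries, the subsets overlapped (log2 -0.17, SE 0.0895), and mouse 2002 had as much Itpr1 in MZ as in FO B cells. Of the summed IP3 receptor RPKM, Itpr3 held 60.2 ± 1.25% in FO Control and 59.8 ± 2.39% in MZ Control libraries. Itpr1 held 19.4 ± 1.72% and 13.7 ± 1.38% of it, and Itpr2 held 20.3 ± 1.51% and 26.5 ± 1.38%. The sum was 115 ± 3.12 RPKM in FO Control and 131 ± 1.26 RPKM in MZ Control libraries, so the balance between Itpr1 and Itpr2 shifted while the share of Itpr3 differed by less than its SD.

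Ryanodine receptor genes had the lowest levels, and Ryr2 was the one that parted the subsets. Ryr2 (ENSMUSG00000021313, chromosome 13, 11553102 to 12106945, minus strand), the release channel of heart muscle, was at 20.45, 18.34 and 19.04 CPM in the FO and 1.364, 1.533 and 1.466 CPM in the MZ libraries of controls. It was at 11.37, 10.3 and 18.1 CPM in FO CKO and 0.6949, 0.9925 and 1.822 CPM in MZ CKO libraries. The MZ values rest on 52, 68 and 52 reads in control and 28, 39 and 66 reads in CKO libraries, against 409 to 822 reads in FO libraries. The MZ level was 13.2-fold lower in control mice (log2 -3.72, SE 0.129) and 11.3-fold lower in CKO mice (log2 -3.50, SE 0.404). In both genotypes Ryr2 was number 2 from the lowest among all genes tested. The FO level was 15, 12 and 13 times the MZ level in the control mice and 16.4, 10.4 and 9.94 times in the CKO mice.

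Ryr1 (chromosome 7, 29003344 to 29125179, minus strand), the release channel of skeletal muscle, was at 16.29, 16.35 and 14.31 CPM in the FO and 14.3, 12.74 and 11.76 CPM in the MZ libraries of controls. In CKO mice it was at 18.74, 20.39 and 14.44 CPM in FO and 14.74, 15.78 and 10.66 CPM in MZ libraries. The highest MZ Control library lay just below the lowest FO Control library, and in CKO mice the subsets overlapped. Ryr3 (chromosome 2, 112631355 to 113217096, minus strand) was near the limit of detection, at 1.511 to 1.745 CPM in FO Control, 0.9603 to 1.86 in FO CKO, 0.8739 to 1.465 in MZ Control and 0.6453 to 1.491 in MZ CKO libraries. These are 26 to 73 reads a library, and 4.83% of its exon bases lie across from exons of Aven on the other strand. The strand setting of the counting was not given in the sources used here, so some of these reads may be from Aven. Per kilobase, Ryr2 supplied 45.5 ± 2.19% of the ryanodine receptor RPKM in FO Control, 33.9 ± 10.1% in FO CKO, 7.25 ± 0.899% in MZ Control and 5.85 ± 3.63% in MZ CKO libraries. Ryr1 supplied 48.7 ± 1.91, 60.6 ± 11.3, 84.3 ± 2.38 and 86.2 ± 7.69% in the same order. The family sum was 1.47 ± 0.0737 RPKM in FO Control and 0.702 ± 0.0619 RPKM in MZ Control libraries.

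**Figure D2:**
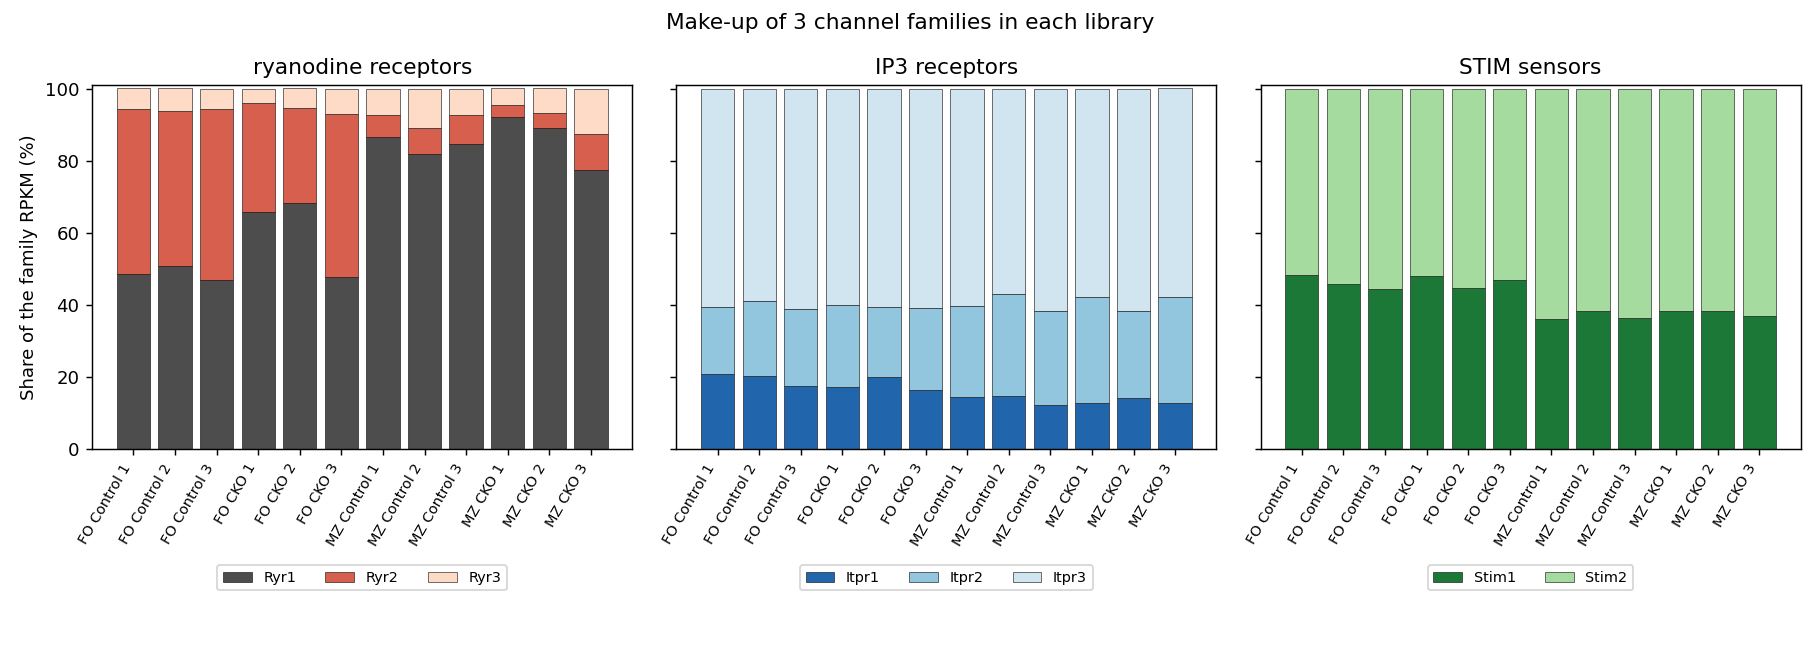
Share of each family's summed RPKM (vertical axis, percent) held by each gene in the 12 libraries, for ryanodine receptors, IP3 receptors and STIM sensors. Ryr2 holds 43.1 to 47.4% in FO Control and 6.26 to 8.02% in MZ Control libraries; the mean share of Itpr3 is 59.2 to 60.6% in all 4 groups.

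In RPKM, the order of the levels in FO Control libraries was Itpr3 (69.1 ± 2.72), Cacna1i (33.2 ± 2.61), Itpr2 (23.3 ± 1.16), Itpr1 (22.3 ± 2.39), Orai1 (11.1 ± 0.394), Stim2 (10.7 ± 0.833), Stim1 (9.17 ± 0.314), Ryr1 (0.717 ± 0.0532), Ryr2 (0.669 ± 0.0373) and Ryr3 (0.086 ± 0.00617). Neighbours whose libraries overlapped there were Itpr2 and Itpr1, Orai1 and Stim2, and Ryr1 and Ryr2. In MZ Control libraries Cacna1i had dropped to the seventh place at 3.88 ± 0.67 RPKM, below Itpr3 (78.4 ± 2.68), Itpr2 (34.7 ± 2.12), Itpr1 (17.9 ± 1.89), Stim2 (12.8 ± 0.563), Stim1 (7.5 ± 0.666) and Orai1 (7.38 ± 0.364). Ryr1 (0.592 ± 0.0588), Ryr3 (0.0595 ± 0.016) and Ryr2 (0.0505 ± 0.00295) followed. Stim1 and Orai1 overlapped, as did Ryr3 and Ryr2. The orders in CKO libraries were the same apart from neighbours that overlapped. Exon lengths are those of all annotated isoforms joined, so a gene with long rarely used exons is understated on this scale.

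Counted over the 10 genes, the libraries of the subsets did not overlap for 3 higher and 7 lower members in control mice (22.2 and 20.1% of all genes) and for 3 higher and 4 lower members in CKO mice (18.6 and 17.9%). The median log2 difference was -0.30 over the 10 genes in both genotypes, against 0.01 and -0.01 over all genes tested. The genes were picked with these values in view, so the counts are a description and nothing is read from them.

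**Figure D3:**
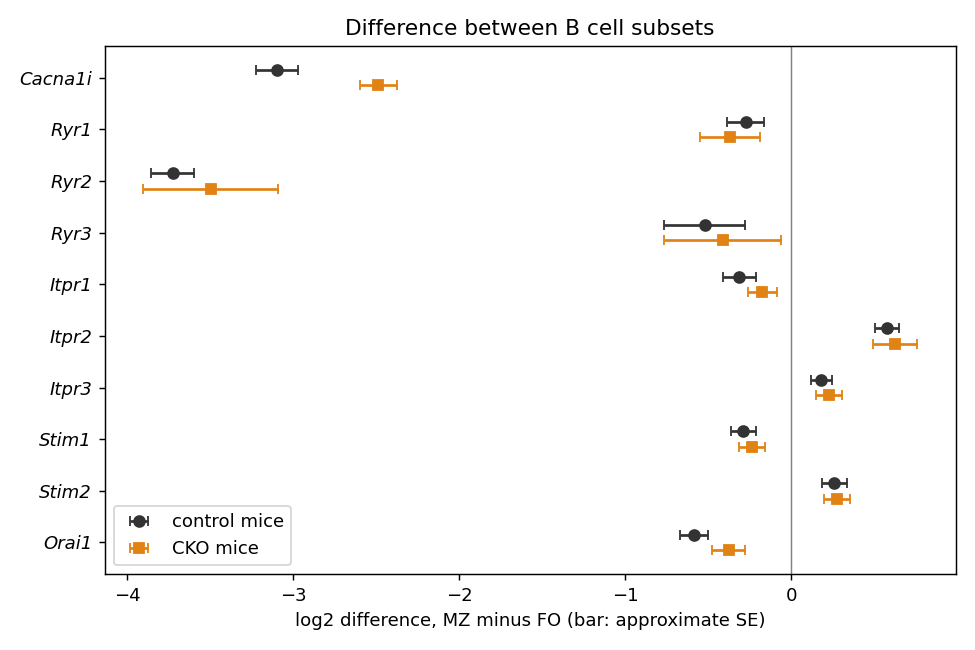
Difference between MZ and FO B cells for each gene (horizontal axis, log2, MZ minus FO) in control and CKO mice; bars are approximate standard errors. Cacna1i and Ryr2 lie between -3.72 and -2.49, and the other 8 genes lie between -0.58 and 0.62.

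The comparison of genotypes, which asks whether loss of Zbtb24 in blood cells changed these genes, called none of the members. In FO B cells 0 of 10 members were past the test, where 0.09% of all genes were called (16 of 17777, or 25 with the replicate number as a block). Without adjustment 3 members were under 0.05, against 4.03% of all genes. The log2 difference was below 0 for 8 of the 10, with a median of -0.11 against 0.01 over all genes. For 4 of them, Ryr2, Itpr3, Stim1 and Orai1, all 3 CKO libraries were lower than all 3 controls, which held for 4.88% of all genes. In each of these 4 the exact two-sided permutation p was 0.1, the smallest that 3 libraries against 3 can give. The members were picked with levels of both genotypes in view, so nothing is read from these counts. Marker sums of other cells in the same libraries were compared as well. The 7 T cell markers summed to 255 to 280 CPM in FO Control and 180 to 250 CPM in FO CKO libraries, without overlap. The 6 neutrophil markers summed to 72.5 to 186 and 116 to 385 CPM, with overlap. The 7 macrophage and monocyte markers summed to 198 to 420 and 268 to 497 CPM, also with overlap. The part of other cells in the FO differences of the members and of Plcg1 was not tested.

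Ryr2 had the largest genotype difference in FO B cells. Its mean was 19.3 ± 1.07 CPM in controls against 13.3 ± 4.23 CPM in CKO mice (log2 -0.54, SE 0.202, 95% interval -1.01 to -0.0655, edgeR adjusted p = 0.9995). The CKO libraries were uneven, because mice 1512 and 1514 had 11.37 and 10.3 CPM and mouse 2002 had 18.1 CPM, close to the 18.34 CPM of control mouse 1507. Mouse 2002 also had the highest Ryr2 level of the CKO mice in MZ B cells. Without the FO library of mouse 2002 (FO CKO replicate 3) the log2 difference was -0.82 and passed edgeR's test (adjusted p = 0.03491), as it did with no filter on low counts (adjusted p = 0.005289), and over all alternatives the adjusted p ran from 0.005289 to 0.9999. Mice 2002 and 2003 also stood together on the second principal component, and the labels do not say what the numbers mark.

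Itpr1 had a mean of 408 ± 43.8 CPM in controls against 344 ± 32.4 CPM in CKO mice (log2 -0.24, 95% interval -0.459 to -0.028, edgeR adjusted p = 0.9995), with overlap. Orai1 was at 25.4 ± 0.903 and 22.4 ± 0.392 CPM (log2 -0.18, 95% interval -0.346 to -0.0157, adjusted p = 0.9995). Cacna1i was at 328 ± 25.7 and 328 ± 17.7 CPM, and its interval ran from -0.158 to 0.169 on the log2 scale. Itpr3 and Stim1 had log2 differences of -0.11 and -0.08, each with an interval that spans 0. These intervals are not adjusted for the number of genes.

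In MZ B cells 0 of 10 members passed edgeR's test, where 0.0793% of all genes were called (14 of 17658), and 1 was under an unadjusted 0.05, against 2.9% of all genes. That member was Cacna1i, at 38.3 ± 6.61 CPM in controls against 58.2 ± 9.42 CPM in CKO mice, 1.52 times the control level (log2 0.60, SE 0.149, 95% interval 0.259 to 0.948, unadjusted p = 0.003704 and adjusted p = 1 in edgeR). Its highest control library, 45.29 CPM, lay below its lowest CKO library, 51.38 CPM, as was so for 3.65% of all genes in this direction, and the exact permutation p was 0.1. The difference had this direction in either set of mice (1505, 1507, 1512 and 1514, or 2003 and 2002), which follows from the lack of overlap. DESeq2 called it (adjusted p = 0.02727), as did edgeR with no filter on low counts (adjusted p = 2.673e-07), so whether it passes rests on the method. Even in CKO mice the MZ level stayed at 17.7% of the FO level, against 11.7% in control mice.

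FO-associated transcripts other than Cacna1i were also measured in the MZ libraries. Fcer2a, the nearest pattern to Cacna1i, was at 65.75 to 74.22 CPM in MZ Control and 75.29 to 94.01 CPM in MZ CKO libraries. The FO marker sum was 4070 to 4460 CPM in MZ Control and 3500 to 4880 CPM in MZ CKO libraries, with none of the 5 markers at 0. The sum of the 6 MZ markers was 5870 to 6620 CPM in MZ Control and 5070 to 6620 CPM in MZ CKO libraries. Of these 6, Cd9 was lower in all CKO libraries (51.18 to 66.04 CPM) than in all controls (70.72 to 74.41 CPM). Cr2, Cd1d1, S1pr3, Dtx1 and Myof overlapped. The mean of Cd1d1 was higher in MZ CKO libraries, at 238.1 ± 20.88 against 225.9 ± 44.03 CPM in MZ Control. Means of the other overlapping markers were lower in MZ CKO than in MZ Control libraries. They were 3186 against 3308 CPM for Cr2, 257.1 against 275.7 for S1pr3, 1715 against 1768 for Dtx1 and 456.4 against 488.7 for Myof. Ryr2, which is FO-associated as well, had 1.45 ± 0.085 CPM in controls against 1.17 ± 0.584 CPM in CKO mice (log2 -0.32, 95% interval -1.06 to 0.418). The part of FO B cells among the MZ cells in the Cacna1i difference was not tested.

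The other 8 members in MZ B cells had log2 differences from -0.12 (Itpr1) to 0.09 (Ryr1), and each of the 95% intervals spans 0. The widest of them were those of Ryr3, -0.854 to 0.649, and Ryr1, -0.258 to 0.429, and the narrowest was that of Stim2, -0.268 to 0.0644. A log2 difference of 0.60, that of Cacna1i, lies outside the interval of each other member except Ryr3.

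**Figure D4:**
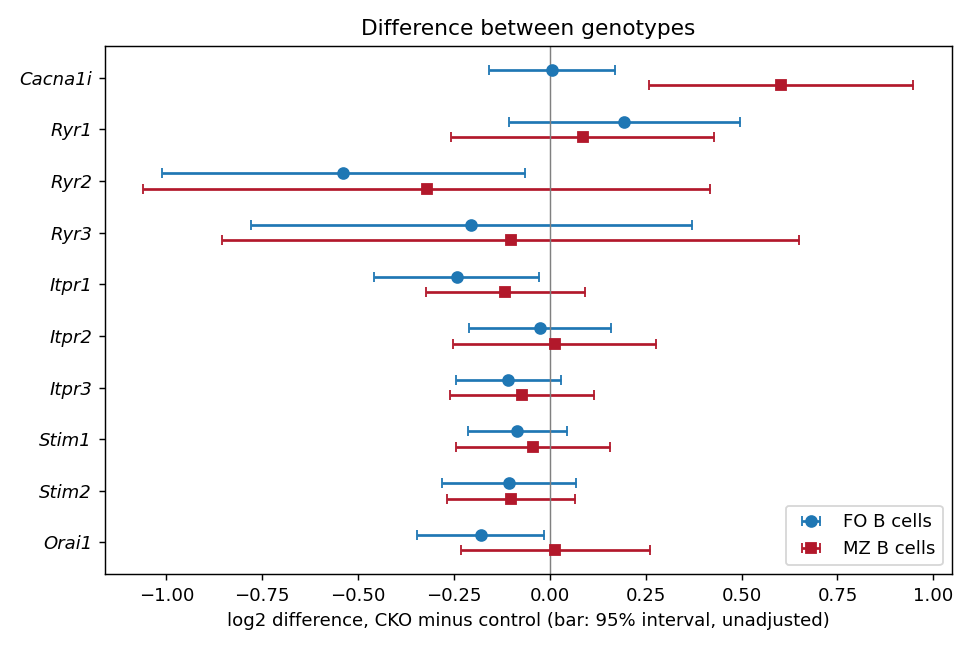
Difference between CKO and control mice for each gene (horizontal axis, log2, CKO minus control) in FO and MZ B cells; bars are unadjusted 95% intervals. The interval of Cacna1i in MZ B cells (0.259 to 0.948) and those of Ryr2, Itpr1 and Orai1 in FO B cells exclude 0 before adjustment.

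Whether the genotype difference itself differed between the subsets was tested as an interaction over all 12 libraries. It was past edgeR's test for 0 of 10 members and for 0% of 18546 genes, with 1.28% of genes under an unadjusted 0.05 (4 genes passed with the animal as a block). DESeq2 called 0 members and 0 genes. Cacna1i had a log2 difference of differences of 0.60 (SE 0.18, unadjusted p = 0.005572, adjusted p = 1 in edgeR, 0.8318 to 1 over the alternatives). The other 9 members ranged from -0.10 for Ryr1 to 0.22 for Ryr2.

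Around these channels, 115 other genes of calcium signalling were listed by role, and 93 of them had enough reads for the comparison of subsets in control mice. In edgeR's test 15 were higher in MZ B cells (16.1%, against 14.9% of all genes) and 19 were lower (20.4%, against 13% of all genes). In CKO mice 12 of 92 were higher (13%, against 10.5%) and 11 were lower (12%, against 7.78%). With the animal as a block 53 of these genes in control and 39 in CKO mice were called, while the calls over all genes rose from 4977 to 7805 in control and from 3243 to 6333 in CKO mice. Of the higher genes, 2 in control mice (Jph1 and Atp2c2) and 1 in CKO mice (Jph1) had enough reads for the test through MZ libraries alone, so those had to differ. Atp2c2 missed the threshold without FO Control replicate 2 or 3 or MZ Control replicate 1. The counts vary with single libraries, from 23 without MZ Control replicate 1 to 36 without MZ Control replicate 2. The counts of single lists below stand beside the same shares of all genes, 14.9% higher and 13% lower in control mice. In CKO mice these shares were 10.5 and 7.78%.

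Of 12 other voltage-gated channel genes tested in control mice, 2 were higher and 2 lower in MZ B cells. Cacna1h, which encodes another T-type pore, fell from 13.4 ± 1.97 CPM in FO to 4.01 ± 0.932 CPM in MZ B cells (log2 change -1.74 with SE 0.186, adjusted p = 4.341e-05 in edgeR). Cacna1d, an L-type pore gene, fell from 14.3 ± 2.26 to 7.09 ± 0.339 CPM (log2 -1.01). Cacna1e, an R-type pore gene, rose from 107 ± 16.8 to 234 ± 36.2 CPM (log2 change 1.13 with SE 0.153, adjusted p = 0.001823), and Cacnb4, an auxiliary beta subunit gene, rose from 0.586 ± 0.127 to 4.63 ± 1.59 CPM (log2 2.97). The same 4 genes passed in the same directions in CKO mice, with log2 differences of -1.15, -0.996, 1.08 and 2.44. Cacna1h thus resembled Cacna1i in direction, and the most abundant other pore, Cacna1e, went the other way. Cacna1h was at 6.97 ± 2.1 CPM in MZ CKO libraries, without overlap with MZ Control (log2 0.80, adjusted p = 1, and 0.03244 with no filter on low counts).

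Among 8 other store-operated entry genes tested in control mice, 1 was higher and 2 lower. Orai2, a second pore of this kind, fell like Orai1, from 204 ± 14.4 CPM in FO to 104 ± 17.5 CPM in MZ B cells (log2 change -0.97 with SE 0.113, adjusted p = 0.000221), and in CKO mice from 181 ± 10.2 to 96.2 ± 7.39 CPM (log2 -0.90). Cracr2a, a cytosolic regulator of ORAI channels (log2 0.48), and Ormdl3 (log2 -0.26) passed in control mice but missed the threshold in some fits that left out FO Control replicate 1, 2 or 3 or MZ Control replicate 1 or 3, at adjusted p up to 0.1177. Among 13 other plasma membrane cation channel genes, 3 were higher and 0 lower (6 passed with the animal as a block). Trpm2, a channel gated by ADP-ribose, rose from 15.9 ± 3.79 to 74.7 ± 14.9 CPM (log2 change 2.23 with SE 0.252, adjusted p = 0.002622), and Pkd1 rose from 196 ± 12.5 to 305 ± 18.6 CPM (log2 0.64). P2rx1, a channel gated by ATP, was the last of the 3 (log2 0.90, adjusted p = 0.03155) and missed the threshold without FO Control replicate 3 or MZ Control replicate 2 or 3, at up to 0.1037.

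**Figure D5:**
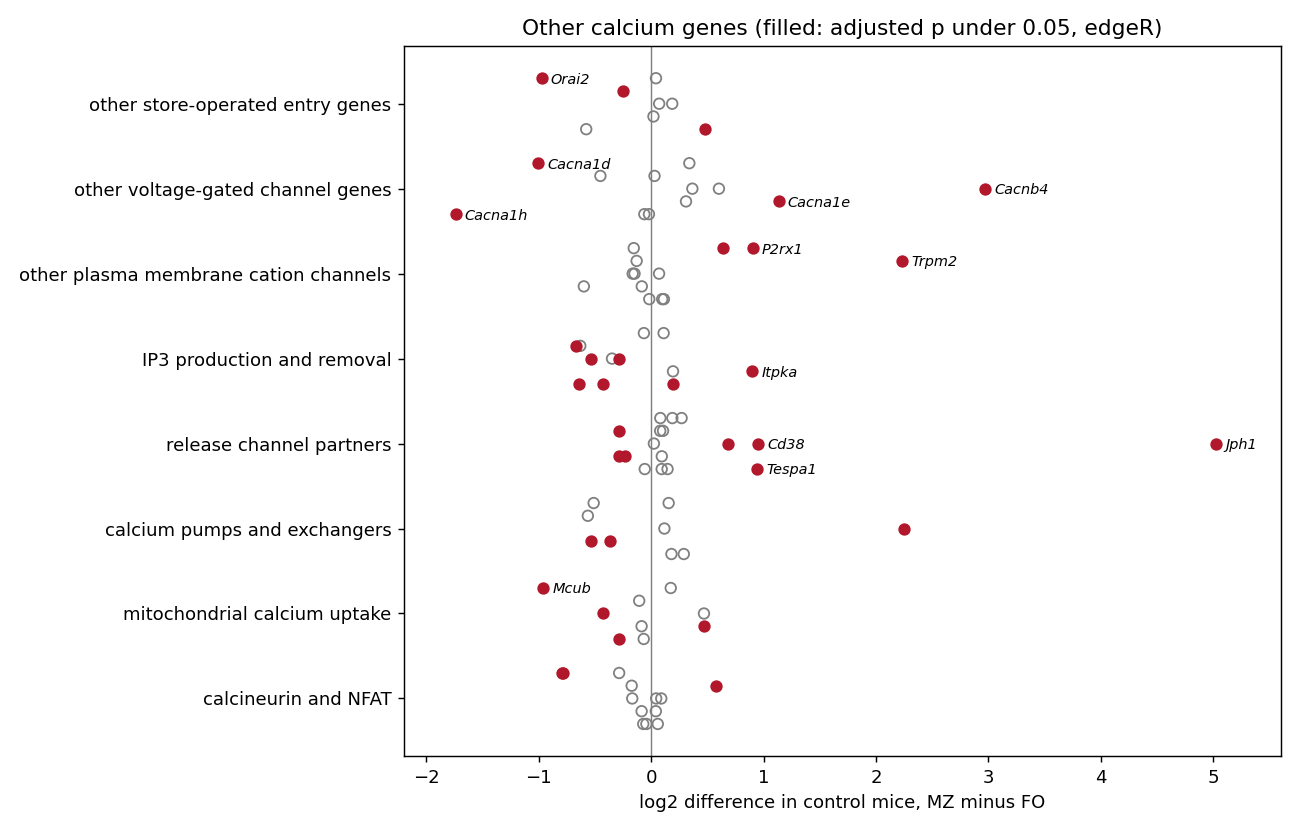
Difference between MZ and FO B cells in control mice (horizontal axis, log2, MZ minus FO) for the 93 other calcium genes tested, 1 row per list; filled points passed edgeR's test, and named genes with a difference beyond 0.85 are labelled. Jph1, with 2 to 5 reads in each FO library, lies farthest to the right at 5.03, and Cacna1h farthest to the left at -1.74; in the lowest row Ppp3ca and Camk4 coincide near -0.80.

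Of 12 enzyme genes for making and removing IP3 tested in control mice, 2 were higher (14.9% of all genes were) and 5 lower in MZ B cells (13% of all genes), and 5 did not pass. The median log2 was -0.32 against 0.01 over all genes. In CKO mice 1 was higher, 4 were lower and 7 did not pass (9 were called with the animal as a block), where 10.5 and 7.78% of all genes were higher and lower. The phospholipase C genes, which make IP3, went both ways in control mice. Plcg1 was higher, and Plcb1, Plcb2, Plcb3 and Plcb4 did not pass. Plcg2 was lower (log2 -0.28 with SE 0.0749, adjusted p = 0.01453), and missed the threshold without FO Control replicate 1 or MZ Control replicate 1. Itpkb, the IP3 kinase needed for normal B cell responses, fell from 236 ± 10.1 to 149 ± 4.65 CPM (log2 change -0.67 with SE 0.0642, adjusted p = 1.497e-05). The inositol phosphatase genes Inpp1 (log2 -0.64) and Inpp5a (log2 -0.53) fell as well. The higher calls, Itpka (log2 0.90) and Plcg1 (log2 0.20), were less firm, since Itpka missed the threshold in 6 of 12 alternatives and Plcg1 in 8. The list count fell from 7 to 4 without FO Control replicate 1 and also without MZ Control replicate 1.

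Of 17 partners of the release channels tested in control mice 4 were higher and 3 lower. Cd38, the enzyme that makes cyclic ADP-ribose, an activator of ryanodine receptors, rose from 176 ± 16 to 340 ± 23.7 CPM (log2 0.95). Tespa1, which binds IP3 receptors, rose from 46.9 ± 0.843 to 90.2 ± 5.27 CPM (log2 0.94). Jph1, a junctophilin that ties the ER to the plasma membrane in muscle, was near the limit of detection in FO B cells, with 4, 2 and 5 reads in FO Control against 96 to 132 reads in MZ Control libraries (0.0897 ± 0.038 and 3.02 ± 0.79 CPM). Its log2 difference of 5.03 therefore rests on 11 reads in FO B cells, and it was tested only because of its MZ reads. Among the lower ones were the calmodulin gene Calm2 (log2 -0.29) and the ER membrane gene Lrmp (log2 -0.23), and each of them missed the threshold in 3 or more fits that left out 1 library (among them any of FO Control and MZ Control replicates 1, 2 and 3), at adjusted p up to 0.1026. The list count fell from 7 to 4 without FO Control replicate 2 and also without MZ Control replicate 1. In CKO mice 4 were higher and 0 lower (7 with the animal as a block), among them Ahcyl2 (log2 0.89), which encodes a relative of the IP3 receptor inhibitor IRBIT, Tespa1 (log2 0.81) and Jph1 (16 reads over all FO CKO libraries against 45 or more in each MZ CKO library). Ahcyl2 was among the higher genes in control mice too (log2 0.68, adjusted p = 2.802e-05 in edgeR).

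Of 9 calcium pump and exchanger genes tested in control mice 1 was higher and 2 lower (7 in all with the animal as a block, 1 without FO Control replicate 2 or without MZ Control replicate 1, and 5 without MZ Control replicate 2). Atp2b1, the plasma membrane calcium pump gene, fell from 137 ± 7.88 to 95 ± 10.4 CPM (log2 change -0.53 with SE 0.0839, adjusted p = 0.0006297), and the mitochondrial exchanger gene Slc8b1 fell from 27.1 ± 2.33 to 20.9 ± 1.97 CPM (log2 -0.37, adjusted p = 0.01471, up to 0.07467 without FO Control replicate 2 or MZ Control replicate 1 or 3). Of 9 mitochondrial uptake genes 1 was higher and 3 lower (2 in all without MZ Control replicate 1). Mcu, the pore of the mitochondrial uniporter, fell from 16.9 ± 0.596 to 12.5 ± 0.818 CPM (log2 -0.43), and Vdac1, an outer membrane channel gene, rose from 40.9 ± 4.57 to 56.6 ± 3.93 CPM (log2 0.47). Mcub (log2 -0.96) and Micu2 (log2 -0.29), regulators of the uniporter, missed the threshold in 3 fits each that left out FO Control replicate 2 or 3 or MZ Control replicate 1 or 2, at adjusted p up to 0.13.

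Downstream of calcium entry, 1 of 13 calcineurin and NFAT genes was higher and 2 were lower in MZ B cells in both genotypes (6 in all in control and 5 in CKO mice with the animal as a block). Nfatc1, the NFAT factor induced in activated lymphocytes, rose from 201 ± 16.7 to 300 ± 28.3 CPM in control mice (log2 change 0.58 with SE 0.0849, adjusted p = 0.0003758). Ppp3ca, a catalytic subunit gene of calcineurin, fell from 258 ± 15.4 to 148 ± 8.56 CPM (log2 change -0.80 with SE 0.0718, adjusted p = 9.461e-06). Camk4, a calcium and calmodulin-dependent kinase gene, fell from 10.4 ± 1.59 to 6.04 ± 1.27 CPM (log2 -0.79). In CKO mice the log2 differences were 0.69, -0.63 and -0.63, and that of Camk4 missed the threshold in 6 of 12 alternatives.

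Between genotypes 0 of 93 other calcium genes tested in FO B cells, 0 of 92 in MZ B cells and 0 of 95 in the interaction passed edgeR's test, and DESeq2 called 0 as well. Under an unadjusted 0.05 were 4, 5 and 0 of them, against 4.03, 2.9 and 1.28% of all genes. In FO B cells the smallest unadjusted p was that of Plcg1, a phospholipase C gene, at 90.2 CPM in controls against 72.6 CPM in CKO mice (log2 -0.31, SE 0.0706, unadjusted p = 0.001438, adjusted p = 0.6907). With no filter on low counts it passed (adjusted p = 0.009315), as did Cd38 (log2 0.31, 0.01451) and Cacna1e (log2 -0.29, 0.0228). In MZ B cells Cacna1h, described above, and Cacna1e (log2 -0.35, 0.02958) passed with no filter. In MZ B cells Plcg1 was at 103 CPM in controls against 89.9 CPM in CKO mice (log2 -0.20, adjusted p = 1), again without overlap between the genotypes.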

How the data were processed

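RNA was measured in 12 libraries of FO and MZ B cells, 3 per group, separated with a magnetic kit and made into libraries with a TruSeq kit per the labels' protocols. The authors deposited whole-number read counts for each Ensembl gene, not normalized. The submitters' processing notes name TopHat, HTSeq and DESeq2, without versions, and the build GRCm38. The strand setting and the annotation used for counting are not given in the sources used here. Reads naming no gene, 43.2 to 50.4% of those listed per library, were left out. A symbol was found for 45229 of 46078 genes in GENCODE M21 on the same build.

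Tests used edgeR 4.0.16 in R 4.3.3 (filterByExpr, TMM, robust quasi-likelihood F test) over all genes, at a Benjamini-Hochberg adjusted p of 0.05. Each genotype comparison and each subset comparison used its 6 libraries, and the interaction used 12. The main fits had no term for the mouse, so FO and MZ libraries of a mouse were treated as unpaired. The SE is the absolute log2 difference over the square root of F, and intervals are 95%. Single values were also tested by exact two-sided permutation. The scripts were tested on simulated data. Alternatives were DESeq2 1.42.0, RLE scaling, no filter, non-robust dispersion, 1 fit of 12 libraries, blocks, and leaving out each library.

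FO and MZ libraries with the same animal number were taken as 1 mouse, since their deviations from the group means correlated at 0.426 to 0.651 in all 6 pairs. Control and CKO libraries with the same replicate number correlated at 0.104, 0.323 and 0.361 in FO B cells (replicates 1 to 3). In MZ B cells replicates 2 and 3 correlated at 0.362 and 0.365, and replicate 1 did not (-0.0654). The labels do not say whether the numbered mice were littermates or handled on the same day.

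The members, the gene lists and the rules for named genes were chosen with earlier results of these data known. The rule names all 10 members, up to 3 genes of each other list per direction past the test with at least 1 CPM, or the 1 gene with the smallest p where none passed, and the 5 nearest patterns to Cacna1i. Cacna1h in MZ B cells and Plcg1, Cd38 and Cacna1e in FO B cells are among them. Single markers were named after their values were seen, as were Atp2c2 and the phospholipase C genes other than Plcg1. Results of some genes the rule names are not reported here. The nearest patterns use log2 CPM with a prior count of 2.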

Additional observations from a re-analysis of the deposited data

How the results depend on the processing

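The subset differences of all members kept their direction in every alternative run in both genotypes. For genotype, the calls depend on the method. In FO B cells DESeq2 called 40 genes, no filter on low counts 140 and the replicate block 25, against 16. In MZ B cells DESeq2 called 38 genes, no filter 95, the replicate block 57 and non-robust dispersion 7, against 14. Members past the test were then 1 in FO B cells with no filter (Ryr2) and 1 in MZ B cells with DESeq2, with no filter and with the replicate block (Cacna1i in each, adjusted p = 0.0006939 with the block). Between MZ Control and MZ CKO libraries, replicate numbers 2 and 3 paired (correlations 0.362 and 0.365) and number 1 did not (-0.0654). With the animal as a block the calls were 7805 in control and 6333 in CKO mice, and the interaction called 4. The cause of these changes was not tested.

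Leaving out 1 library at a time gave 11 to 31 genes in FO B cells (31 without FO CKO replicate 3), with 0 to 1 members past the test (1, Ryr2, without the same library), and 5 to 34 in MZ B cells (7, 5 and 9 without MZ Control replicates 1, 2 and 3, and 34 without MZ CKO replicate 3). Between subsets in CKO mice it gave 1898 (without FO CKO replicate 1) to 2884 genes. Small log2 differences of the genotype comparisons and the interaction changed sign. In FO B cells these were Cacna1i (-0.0467 to 0.0635), Itpr2 (-0.0696 to 0.0583) and Ryr3 (-0.439 to 0.0166). In MZ B cells they were Itpr2 (-0.0986 to 0.138), Orai1 (-0.0681 to 0.0644), Ryr1 (-0.0213 to 0.247), Ryr3 (-0.418 to 0.156) and Stim1 (-0.111 to 0.0389). In the interaction they were Itpr2 (-0.0802 to 0.161), Itpr3 (-0.0175 to 0.0875), Ryr1 (-0.234 to 0.0487), Ryr2 (-0.245 to 0.51), Ryr3 (-0.219 to 0.364), Stim1 (-0.0200 to 0.118) and Stim2 (-0.0285 to 0.0841), and Stim2 was at -0.00304 with no filter. Depth limits Ryr3 and, in MZ B cells, Ryr2, each with fewer than 100 reads a library.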
